A study of Homo sapiens with 14 samples.

Results

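Guides against TBX1, TBX2, TBX5 and TBX20, the T-box transcription factors of the heart's chambers and outflow tract, made up 28 of the 11364 guides of a pooled knockout library. They were taken as every guide whose target name in the deposited tables was one of the 4 symbols, which gave 7 guides for each of these 4 of 1633 targets. The values measured are the abundance of guide cassettes in genomic DNA, so they describe how many cells carried a guide and not the expression of the T-box genes. In the GRCh38.p14 gene table TBX1 lies on chromosome 22 from 19756703 to 19783593, and TBX2 on chromosome 17 from 61399843 to 61409466. TBX5 lies on chromosome 12 from 114353911 to 114408442, and TBX20 on chromosome 7 from 35202430 to 35254100.

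All 5 groups were H9 cells, an established line of human pluripotent stem cells labelled WT, that carried the guide library and a Cas9 switched on by doxycycline. The day 25 groups were TNNT2- and TNNT2+ cells of 3D cultures and TNNT2- and TNNT2+ cells of 2D cultures, with 3 replicates each, after differentiation towards cardiomyocytes. The last group was undifferentiated H9 cells at day 0, with 2 replicates that also carried the library. TNNT2 encodes cardiac troponin T, a sarcomere protein of cardiomyocytes, and the sort on it asked which guides were more abundant in the cells that lacked it. When doxycycline was given is not given in the sources used here, and neither editing nor the level of any T-box protein was measured.

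T-box factors bind DNA through a shared domain and either activate or repress genes of the developing heart. TBX5 works with NKX2-5 and GATA4 to switch on chamber genes and is mutated in Holt-Oram syndrome, while TBX20 is needed for growth of the chamber myocardium and interacts with the same partners. TBX2 is a repressor that keeps the atrioventricular canal from taking on a chamber programme, and TBX1 acts in the pharyngeal region and the second heart field, from which the outflow tract forms.

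The 14 libraries held between 22355936 and 31671019 reads. In 4 of them more than 10% of all guides had under 10 reads: TNNT2- replicates 2 and 3 and TNNT2+ replicate 3 of the 3D cultures, and day 0 replicate 2. These are called thinly covered below, a name for their many low guides and not for their read totals. There, 39 of the 112 values of the T-box guides were under 10 reads, a share of 34.8% against 28.7% for all guides. In 3D TNNT2+ replicate 3 this concerned 15 of the 28 guides, and TBX5 kept reads above that limit from only 2 of its 7 guides. In the other 10 libraries 1 of 280 values was that low, a TBX2 guide, TBX2_5, with 0 reads in 2D TNNT2+ replicate 1. Levels below are reads scaled to the library total (CPM), either of 1 guide or summed over a target's 7 guides. A difference is a log2 ratio of the deposited values after adding 10, and a target's difference is the mean over its guides.

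The levels of the 4 targets differed over the 14 libraries. TBX5 guides summed to more than the median target in 13 of the 14 libraries, and TBX2 guides summed to less than the lower quartile in 13 of the 14. The median of the 1574 targets with 7 guides lay between 573 and 598 CPM in every library. TBX1 and TBX20 were each above that median in 9 libraries and below it in 5.

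TBX5 guides summed to 643, 899 and 592 CPM in 3D TNNT2- cells and to 869, 632 and 182 CPM in 3D TNNT2+ cells. They summed to 779, 823 and 718 CPM in 2D TNNT2- cells, to 1049.6, 794 and 628 CPM in 2D TNNT2+ cells and to 735 and 614 CPM at day 0. By group mean the order was 2D TNNT2+ (824 ± 212 CPM), 2D TNNT2- (773 ± 52.6), 3D TNNT2- (711 ± 164), day 0 (674 ± 84.9) and 3D TNNT2+ (561 ± 349), with SD, n = 3 each and n = 2 at day 0. Every neighbouring pair in this order overlapped. A single guide, TBX5_6, was the most abundant TBX5 guide in all 14 libraries and supplied between 37.6% and 90.3% of the target's reads. It had 371.5 and 244 CPM at day 0, so its excess was already present before differentiation.

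TBX20 guides summed to 677, 746 and 1060.3 CPM in 3D TNNT2- cells, against 620.3, 735 and 231 CPM in 3D TNNT2+ cells. In 2D the sums were 539, 649 and 625 CPM in TNNT2- cells, against 474, 514 and 644 CPM in TNNT2+ cells, and day 0 had 514 and 597 CPM. The highest group mean, 828 ± 204 CPM in 3D TNNT2- cells, lay above 2D TNNT2- cells (604 ± 57.7 CPM) with no overlap of their libraries (SD, n = 3 each), as for 5.78% of the targets with 7 guides. The 746 and 1060.3 CPM came from thinly covered libraries, and in the latter 1 guide, TBX20_5, had 415 CPM. The lower neighbours, day 0 (556 ± 58.5 CPM, n = 2), 2D TNNT2+ (544 ± 89.0 CPM) and 3D TNNT2+ (529 ± 264 CPM), overlapped one another.

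TBX1 guides summed to 868, 945 and 387 CPM in 3D TNNT2- cells, against 828, 680.4 and 457 CPM in 3D TNNT2+ cells. In 2D the sums were 538, 725 and 766 CPM in TNNT2- cells, against 563, 723 and 666 CPM in TNNT2+ cells, and day 0 had 599 and 416 CPM. The 4 day 25 means lay between 651 and 733 CPM, above 508 ± 129 CPM at day 0 (SD, n = 2), and all neighbours in the order overlapped.

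TBX2 guides summed to 468, 117 and 78.2 CPM in 3D TNNT2- cells, against 472, 279.7 and 261 CPM in 3D TNNT2+ cells. In 2D the sums were 347, 366 and 395 CPM in TNNT2- cells, against 398, 450.2 and 706 CPM in TNNT2+ cells, and day 0 had 421 and 236 CPM. The 2D TNNT2- libraries were all below the 2D TNNT2+ ones, as for 4.64% of the targets with 7 guides, but the means of 369 ± 24.2 CPM in TNNT2- cells and 518 ± 165 CPM in TNNT2+ cells (SD, n = 3 each) differed by 148 CPM, less than the larger SD. Of the 706 CPM, 45.8% came from 1 guide, TBX2_1, which had 323 CPM there and 102 and 97.2 CPM in the other 2D TNNT2+ replicates.

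In 2D, guides against none of the 4 genes differed between TNNT2- and TNNT2+ cells at an adjusted p under 0.05 (limma), and no target of the whole library did (0%). For TBX5 the difference was 0.08 ± 0.22 (SE), with a 95% interval of -0.37 to 0.53 (adjusted p = 0.963, limma), and 4 of 7 guides were higher in TNNT2- cells. TBX20, its partner in chamber myocardium, had 0.20 ± 0.21 (-0.24 to 0.65, adjusted p = 0.963, limma), with 5 of 7 guides higher. TBX1 had 0.03 ± 0.21 (-0.42 to 0.48, adjusted p = 0.984, limma), with 4 of 7 guides higher. The repressor TBX2 had -0.22 ± 0.40 (-1.07 to 0.62, adjusted p = 0.963, limma), with 2 of 7 guides higher. None of the 4 had an unadjusted p under 0.05 in limma, against 2.59% of all 1621 targets tested higher and 1.23% lower, and neither edgeR nor DESeq2 called any of them after adjustment. With reads summed over guides TBX2 had -0.47 in limma (unadjusted p = 0.0371, adjusted p = 0.995), -0.49 in edgeR (unadjusted p = 0.0327, adjusted p = 0.980) and -0.49 in DESeq2 (unadjusted p = 0.0301, adjusted p = 0.810). In the limma fit of summed reads 47 of 1621 targets were lower at an unadjusted p under 0.05, in edgeR 30 and in DESeq2 47. On the mean of log2 values over guides none of the 4 had TNNT2- values all above or all below its TNNT2+ values, as 4.81% and 3.64% of targets had. The intervals of TBX1, TBX5 and TBX20 thus reached at most 0.65 in either direction, while that of TBX2 reached -1.07.

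The labels' protocols describe the TNNT2- and TNNT2+ fractions as coming from the same differentiations, so the ratio within each replicate number can be read as well. TBX20 was higher in the TNNT2- fraction of all 3 replicates, by 0.27, 0.27 and 0.07, a pattern held by 15.3% of targets. TBX5 had -0.33, 0.31 and 0.26, and TBX1 had -0.06, -0.05 and 0.21, so neither kept 1 direction. TBX2 had 0.89, -0.62 and -0.94. In replicate 1, the one with the positive value, TBX2_5 had 302 reads in TNNT2- cells and 0 in TNNT2+ cells. There TBX2_6 had 1563 reads in TNNT2- cells, against 205 in TNNT2+ cells, and TBX2_3 had 869 in TNNT2- cells, against 267 in TNNT2+ cells. The reads of TBX2_5 in the other replicates were 292 and 202 in TNNT2- cells, against 1453 and 563 in TNNT2+ cells. Without 2D TNNT2+ replicate 1 the TBX2 difference was -0.72 (unadjusted p = 0.0307, adjusted p = 0.995, limma). In that fit 32 of 1621 targets were lower and 35 higher at an unadjusted p under 0.05. Without 2D TNNT2+ replicate 2 the TBX2 difference was -0.01 and without replicate 3 it was 0.06.

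Of the 28 guides in 2D, 15 were higher in TNNT2- cells and 13 lower (50.6% and 49.4% of all guides), over a range of -0.89 to 0.86. None moved by more than 1, which 11.7% of all guides did, and their SD was 0.51 against 0.72 for all guides. None of the 28 passed the test in limma, edgeR or DESeq2 (0% of all guides in limma), and none had an unadjusted p under 0.05 in limma, against 1.67% of all guides in each direction. Of all 11346 guides DESeq2 called 3 higher and 2 lower. On the deposited scale 3 guides had TNNT2- values all below their TNNT2+ values, which 4.41% of all guides had, and 0 had them all above (4.41% of all guides). TBX2_7 had 23.8, 45.9 and 25.5 CPM in TNNT2- cells, against 49.8, 46.6 and 74.8 CPM in TNNT2+ cells (-0.89 ± 0.71, SE). TBX20_5 had 56.9, 83.6 and 64.0 CPM in TNNT2- cells, against 105, 118.5 and 85.2 CPM in TNNT2+ cells (-0.62 ± 0.45), so it ran opposite to 5 of the other 6 TBX20 guides. TBX1_6 had 57.9, 83.0 and 86.9 CPM in TNNT2- cells, against 85.0, 109 and 101 CPM in TNNT2+ cells (-0.42 ± 0.44), and on the CPM scale its groups overlapped slightly. Within replicates, 7 of the 28 guides were lower in the TNNT2- fraction all 3 times (25% against 12.9% of all guides) and 3 were higher all 3 times (10.7% against 12.5%). The most abundant of the guides, TBX5_6, had 398, 321 and 270 CPM in TNNT2- cells, against 664, 381 and 293 CPM in TNNT2+ cells, a difference of -0.40 ± 0.31.

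In 3D, again none of the 4 targets passed the test between TNNT2- and TNNT2+ cells, and no target of the library did (0%, limma). The differences were larger in size than in 2D and so were their errors. TBX20 had 0.90 ± 0.62 (SE, 95% interval -0.39 to 2.20), with 5 of 7 guides higher in TNNT2- cells. TBX5 had -0.44 ± 1.12 (-2.79 to 1.90) and 3 of 7 guides higher, and TBX2 had -0.80 ± 1.24 (-3.39 to 1.78) and 3 of 7 higher. TBX1 had -0.65 ± 0.73 (-2.18 to 0.88) and 2 of 7 higher. The adjusted p was 0.990 for each of the 4 in limma, none had an unadjusted p under 0.05 (0.802% of targets higher, 2.1% lower), and edgeR and DESeq2 called none of the 4. Of all 1621 targets DESeq2 called 2 higher and 0 lower. Of the 4, 1 was higher in TNNT2- cells, as were 45.8% of all targets. None had TNNT2- values all above (2.78% of targets) or all below (4.75%) its TNNT2+ values. In edgeR and DESeq2, which sum reads over guides, TBX1 had 0.19 and 0.17 and TBX5 had 0.39 and 0.37. These ran opposite to limma on the mean of log2 values. On summed reads limma gave -0.20 for TBX1 and 0.30 for TBX5, so only TBX5 changed direction there.

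Within replicates the 3D ratios were uneven. TBX20 had -0.10, 0.30 and 2.51 in replicates 1, 2 and 3. Without TNNT2+ replicate 3, where 3 of its guides had under 10 reads, the TBX20 difference was 0.27. TBX1 had -0.14, -0.76 and -1.05, TBX2 had -0.23, -1.96 and -0.22, and TBX5 had -0.23, -1.08 and -0.02. These 3 targets were thus lower in the TNNT2- fraction of every replicate, as were 15.2% of all targets. Without the 3 thinly covered 3D libraries, which left 1 TNNT2- and 2 TNNT2+ libraries, the differences were 0.20 for TBX1, 0.35 for TBX2, -0.20 for TBX5 and -0.13 for TBX20 (adjusted p = 0.995 for each, limma). In that comparison the lone TNNT2- library was assumed to vary like the TNNT2+ ones.

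In the 3D sort 13 of the 28 guides were higher in TNNT2- cells and 15 lower (47% and 53% of all guides). They ranged from -4.09 to 4.81, with an SD of 2.16 against 1.95 for all guides. A change of more than 1 was seen in 18 of them (64.3% against 56.9% of all guides). Of the 28, 19 had under 10 reads in at least 1 3D library, as had 57.4% of all guides. Without the 3 thinly covered libraries the same guides ranged from -1.24 to 2.04, with an SD of 0.75.

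TBX1 guides differed widely from one another. TBX1_6 had 4901, 11446 and 5284 reads in TNNT2- cells, against 2172, 541 and 1 in TNNT2+ cells, a difference of 4.81 ± 2.04 (unadjusted p = 0.0182, adjusted p = 0.9999, limma). It was the only one of the 28 guides with TNNT2- values all above its TNNT2+ values (4.01% of all guides) and the only one with an unadjusted p under 0.05, against 0.406% of all guides higher and 0.883% lower. TBX1_1 had 2018, 19 and 715 reads in TNNT2- cells, against 4612, 3266 and 2794 in TNNT2+ cells, a difference of -3.62 ± 2.02, and was the only guide with its TNNT2- values all below (3.2% of all guides). TBX1_3 had 4660, 2942 and 6 reads in TNNT2- cells, against 5584, 2540 and 4318 in TNNT2+ cells. It was low in 1 library alone and had a difference of -3.01 ± 1.75. The SD over the 7 TBX1 guides was 2.98, at percentile 97.9 of the SDs over guides of all targets, whose median was 1.84. Guides to 1 gene share their target and are not replicates of a condition. Without the 3 thinly covered libraries TBX1_6 had 2.04 and TBX1_1 had -1.05, neither called in limma. No adjusted p under 0.05 was found for any guide of the library in the 3D sort (0%, limma), nor for any of the 28 in edgeR or DESeq2. Of all 11331 guides DESeq2 called 6 higher and 2 lower.

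Among the other guides, TBX5_7 had the lowest 3D difference (-4.09 ± 2.91). It had 1611, 5 and 7 reads in TNNT2- cells, against 664, 1422 and 1417 in TNNT2+ cells, so it was the higher in TNNT2- cells in replicate 1 and nearly unread there in the other replicates. TBX20_5 had 1723, 3894 and 13134 reads in TNNT2- cells, against 3403, 1007 and 122 in TNNT2+ cells (2.19 ± 1.64). It had been lower in TNNT2- cells in 2D. TBX5_6, which had 3005 reads or more in every 3D library, had 356, 643 and 535 CPM in TNNT2- cells, against 524, 303 and 122.7 CPM in TNNT2+ cells (0.59 ± 0.92).

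The sort ratio of the 3D cultures was set against that of the 2D cultures directly, on reads scaled together. The difference of differences was -0.62 ± 0.95 for TBX1 (95% interval -2.62 to 1.38), -0.55 ± 1.39 for TBX2 (-3.46 to 2.36), -0.47 ± 1.33 for TBX5 (-3.26 to 2.32) and 0.79 ± 0.84 for TBX20 (-0.97 to 2.55). The adjusted p was 0.995 for each in limma, no target of the library passed (0%), and none of the 4 had an unadjusted p under 0.05 (0% of targets higher, 1.23% lower). edgeR and DESeq2 called none of the 4 either. Of the 28 guides, 12 had the same sign in both sorts (42.9% against 50.6% of all guides): 5 of 7 for TBX20, 4 of 7 for TBX2, 2 of 7 for TBX5 and 1 of 7 for TBX1. No guide of the library passed (0%, limma). TBX1_6 had 5.21 (unadjusted p = 0.0124, adjusted p = 0.948, limma) and TBX1_1 had -3.79 (unadjusted p = 0.032, adjusted p = 0.948, limma), and no other of the 28 had an unadjusted p under 0.05. Among all guides, 0.688% were higher and 1.44% lower at that level.

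Day 25 cells of both fractions, averaged within a replicate, were set against day 0 to ask whether cells with T-box guides gained or lost share over differentiation. The average weighted both fractions equally, whatever their share of the culture, so it can differ from a guide's share of the whole culture. In 2D the difference was 0.86 ± 0.43 for TBX1, 1.75 ± 1.02 for TBX2, 0.79 ± 0.38 for TBX5 and 0.66 ± 0.42 for TBX20 (SE, adjusted p = 0.411 for each, limma). The median of all targets was 0.82 in this comparison, so relative to it TBX1 stood at 0.04, TBX2 at 0.93, TBX5 at -0.03 and TBX20 at -0.16. On the mean of log2 values over guides all 4 had day 25 values above both day 0 values, as had 32% of all targets, while 86.8% had a positive difference and 3.27% had day 25 values below both. No target passed (0%, limma), none of the 4 had an unadjusted p under 0.05, against 2.96% of targets higher and 0.37% lower, and edgeR and DESeq2 called none of the 4. Of all 1621 targets DESeq2 called 15 higher and 18 lower. With reads summed over guides before taking log2, the median of all targets was -0.40. TBX1 then had -0.03, TBX5 had -0.18 and TBX20 had -0.38, but relative to that median they stood at 0.37, 0.21 and 0.02, and TBX2 at 0.45. edgeR, in which the median was -0.01, gave 0.36 for TBX1, 0.43 for TBX2, 0.22 for TBX5 and 0.03 for TBX20.

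These values depended on which day 0 library was used, and the 28 guide levels of the pair correlated at r = 0.416 across guides, which are not independent replicates. Without day 0 replicate 1, which left the thinly covered replicate 2, the differences were 1.45, 2.94, 1.16 and 1.10 for TBX1, TBX2, TBX5 and TBX20, and all 4 passed the test in limma. So did 76.7% of all targets in that direction. Without day 0 replicate 2 the differences were 0.26, 0.55, 0.42 and 0.22, and none of the 4 passed. The lone day 0 library was assumed in both cases to vary like the day 25 ones.

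A pair of guides, picked out after their values were seen, was scarce at day 0 in both replicates and higher in every 2D library at day 25. The share of all guides with this pattern was not counted. TBX5_7 had 121, 87.6 and 101 CPM in 2D TNNT2- cells and 53.7, 54.2 and 105 CPM in 2D TNNT2+ cells, against 6.97 and 0.0788 CPM at day 0. Its difference was 5.29 (unadjusted p = 0.0446, adjusted p = 0.515, limma). Without day 0 replicate 2, which left 1 day 0 library, it was 3.54. TBX2_3 had 38.3, 23.1 and 20.2 CPM in 2D TNNT2- cells and 11.6, 44.5 and 39.9 CPM in 2D TNNT2+ cells, against 1.51 and 0.0788 CPM at day 0. Without day 0 replicate 2 its difference was 3.89. In 3D, TBX5_7 had 61.5, 0.211 and 0.221 CPM in TNNT2- cells and 24.1, 56.3 and 57.8 CPM in TNNT2+ cells. There TBX2_3 had 33.5, 34.7 and 1.55 CPM in TNNT2- cells and 42.9, 15.4 and 0 CPM in TNNT2+ cells. Neither guide was thus above both day 0 values in every 3D library. Both guides rested at day 0 on few reads, 199 and 2 for TBX5_7 and 43 and 2 for TBX2_3. TBX20_2 ran the other way, with -1.80 (unadjusted p = 0.048, adjusted p = 0.515, limma), from 2149 and 6976 reads at day 0. Its difference was -0.44 without day 0 replicate 2 and -3.17 without day 0 replicate 1. No guide of the library passed with both day 0 libraries (0%, limma), 1 of the 28 was higher at an unadjusted p under 0.05 (2.47% of all guides) and 1 lower (3.97%). In all, 13 of the 28 guides were higher and 15 lower at day 25 (51.7% and 48.3% of all guides). Values of all 2D day 25 replicates lay above both day 0 values for 4 of the 28 guides (13.8% of all guides) and below them for 1 (14.1%).

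In 3D, measured against the same day 0 libraries, the differences were 0.89 ± 0.62 for TBX1, 0.96 ± 1.28 for TBX2, -0.39 ± 0.89 for TBX5 and 0.94 ± 0.61 for TBX20 (SE). The adjusted p values were 0.503, 0.727, 0.843 and 0.491 in that order (limma), no target passed in limma (0%), and edgeR and DESeq2 called none of the 4. Of all 1621 targets DESeq2 called 10 higher and 2 lower. None of the 4 had an unadjusted p under 0.05 in limma, against 11% of targets higher and 0.0617% lower. The median of all targets was 0.70. Relative to it TBX5 stood at -1.09, at percentile 8.11 of all targets, while the others stood between 0.19 and 0.26 above it. With summed reads TBX5 stood at -0.23 relative to the median, and in edgeR and DESeq2 at -0.08. Without the 3 thinly covered 3D libraries its value was 0.31, which was -0.19 relative to the median there. Leaving out 1 library moved TBX1 between 0.03 (without 3D TNNT2+ replicate 3) and 1.25 (without day 0 replicate 1) and TBX20 between 0.16 (without 3D TNNT2- replicate 3) and 1.14 (without day 0 replicate 1). TBX2 moved between 0.04 without day 0 replicate 2 and 1.89 without day 0 replicate 1, and TBX5 between -0.79 without 3D TNNT2+ replicate 2 and -0.27 without day 0 replicate 1. TBX1 and TBX20 had all day 25 values above both day 0 values, as had 25.7% of targets. Among the 28 guides, 4 had such values above (12.8% of all guides) and 3 below (4.91%), and none passed in limma, edgeR or DESeq2 (0.00882% of all guides higher in limma). Of all 11337 guides DESeq2 called 16 higher and 1 lower. TBX1_2, with 2758 and 6 reads at day 0, was the only one of the 28 with an unadjusted p under 0.05 (0.045, adjusted p = 0.936, limma), which 4.45% of all guides had in that direction.

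The other T-box genes and the cardiac partners of these factors likewise held no gene that passed in either sort. In 2D, 8 of the 13 other T-box genes were higher in TNNT2- cells, with a median of 0.06. TBX21, a T-box factor of lymphocytes, had 1.19 ± 0.33 (unadjusted p = 0.00203, adjusted p = 0.963, limma), and T, the older symbol of the mesoderm factor TBXT, had 0.37 ± 0.21. Of 21 tested partners, among them NKX2-5, GATA and HAND genes and also TBX3 and TBX18 of the other list, 14 were higher in 2D with a median of 0.07, against 923 of 1621 targets and a median of 0.05 overall. NKX2-5, the homeobox partner of TBX5, had -0.44 ± 0.19 and HAND2, a basic helix-loop-helix factor of the right ventricle and outflow tract, had 0.57 ± 0.26. In 3D, 6 of the 13 other T-box genes and 10 of the 21 partners were higher in TNNT2- cells, both with a median of -0.01, against 742 of 1621 targets and a median of -0.08. In 3D, TBX6, a factor of presomitic mesoderm, had 1.01 ± 0.66 and MGA, which holds a T-box domain, had -1.22 ± 0.99. Among the partners MEF2C, a MADS-box factor of muscle, had 2.46 ± 1.18 and HAND2 had -1.11 ± 0.59 in 3D. Of the 13 other T-box genes 1 had an unadjusted p under 0.05 in 2D and 0 in 3D, and of the 21 partners 3 and 1 had, against 3.82% of all targets in 2D and 2.9% in 3D, all in limma. The 100 control guides had a median of -0.04 and an SD of 0.60 in the 2D sort, and 0.09 and 1.76 in the 3D sort. All 28 T-box guides lay between -2.10 and 3.14, the range of the controls, in 2D. In 3D TBX1_6 and TBX5_7 lay outside the controls' range of -3.97 to 3.76. Each had under 10 reads in at least 1 3D library, and the share of all guides outside that range was not counted.

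Targets whose guide levels followed those of the T-box genes most closely were found by Pearson's r over the 14 libraries, given as a description because the points share libraries and depth. TBX1 was most like HOXA5 (0.900), ARGFX (0.827) and ZBTB37 (0.827), and TBX2 most like MYSM1 (0.828), ARGFX (0.821) and ZNF641 (0.771). TBX5 was most like CLOCK (0.961), TEAD4 (0.924) and PGR (0.921), and TBX20 most like DPRX (0.950), ZNF319 (0.902) and ZSCAN4 (0.896). Each of these values was smaller over the 10 libraries without thin coverage. For TBX1 they were 0.756 with HOXA5, 0.602 with ARGFX and 0.454 with ZBTB37, and for TBX2 0.791 with MYSM1, 0.779 with ARGFX and -0.0659 with ZNF641. For TBX5 they were 0.692 with CLOCK, 0.106 with TEAD4 and 0.393 with PGR, and for TBX20 0.410 with DPRX, 0.152 with ZNF319 and 0.489 with ZSCAN4. Within the 4, TBX1 and TBX2 had an r of 0.754 over 14 libraries and 0.657 over the 10. TBX1 and TBX5 had 0.632 and -0.0046, TBX1 and TBX20 had -0.568 and 0.428, and TBX2 and TBX5 had 0.398 and -0.354. TBX2 and TBX20 had -0.466 and 0.247, and TBX5 and TBX20 had -0.251 and -0.162.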

How the data were processed

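The tables deposited by the authors, 1 for 2D and 1 for 3D, repeat the same day 0 columns on separate scales. A deposited value is a normalized signal of 1 guide. Within each of the 16 columns all values were whole multiples of 1 step, so reads were recovered by dividing by it. The step was taken as 1 read in all columns, but only 8 of the 16 held enough low values to test that. MAGeCK and hg38 are named per the submitters' processing notes, without a version or normalization setting in the sources used here. PCR reads carry no molecular identifiers, so depth does not give the number of cells sampled. limma 3.58.1 (R 4.3.3, trend) was run on log2(value + 10) for guides with a mean of at least 10 and for targets with at least 3 such guides. Its p-values were adjusted over all by Benjamini-Hochberg and called at 0.05. The method was first run on simulated data, but the size of change it could call is not given here. The sort difference used reads scaled together. Adding 10 understates the changes of guides with low values. Alternatives were edgeR 4.0.16 and DESeq2 1.42.0 on recovered reads, other pseudocounts, filters and scalings, summed reads, blocking on the replicate number, and leaving out single libraries. Pairing comes from the labels' protocols; residuals of same-numbered fractions correlated at 0.0767, 0.108 and 0.126 in 2D and 0.109, 0.0560 and 0.0735 in 3D. Whether the day 0 replicates came from different cultures is not stated, and p-values there may measure technical spread alone. The named targets were the 4 genes, the 3 most alike for each, and from 2 lists the pair of lowest unadjusted p in each sort. The members and lists were chosen with earlier results of these data known. Guide sequences were not used here.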

Additional observations from a re-analysis of the deposited data

Results flagged for a closer look

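The sort ratio of 2 TBX1 guides ran in opposite directions in the 2 systems in every replicate. Of all guides, 1.43% were higher in all 3D pairs and lower in all 2D pairs, as TBX1_6 was, and 1.67% the other way round, as TBX1_1 was. For TBX1_6, the TNNT2- over TNNT2+ log2 ratios were 1.11, 4.87 and 8.44 in 3D, against -0.62, -0.39 and -0.24 in 2D, a difference of their means of 5.22. For TBX1_1 they were -1.24, -6.11 and -3.50 in 3D, against 0.08, 0.04 and 0.70 in 2D, a difference of -3.89. Tested in limma on reads scaled together, the differences were 5.21 and -3.79, each with an adjusted p of 0.948. TBX1_6 had 1 read in 3D TNNT2+ replicate 3 and TBX1_1 had 19 reads in 3D TNNT2- replicate 2, both thinly covered libraries. Without the 3 thinly covered 3D libraries, which left 1 3D TNNT2- library, the differences were 2.51 for TBX1_6 and -1.27 for TBX1_1. The cause of the change in size was not tested.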

How the results depend on the processing

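Of 220 values of the 4 targets under alternatives other than leaving out 1 library, 192 kept their direction and their side of the threshold and 28 changed direction. Of 160 with a library left out, 140 kept both, 16 changed direction and 4 passed the threshold. The 28 changes of direction all concerned values that passed no test, and their causes were not tested. With reads summed over guides, TBX5 had -0.090 between the 2D fractions, 0.30 between the 3D fractions and 0.52 in their difference. In 2D day 25 over day 0, TBX1 then had -0.025, TBX5 -0.18 and TBX20 -0.38, and in 3D TBX2 had -0.14. edgeR and DESeq2, also on summed reads, gave TBX5 -0.091 and -0.096 for the 2D sort. For 3D they gave 0.39 and 0.37 for TBX5 and 0.19 and 0.17 for TBX1, while limma on summed reads kept TBX1 at -0.20. For the difference between sorts they gave TBX1 0.13 and 0.11 and TBX5 0.47 and 0.46, and for 3D day 25 over day 0 TBX2 -0.25 and -0.26. Without the 3 thinly covered 3D libraries the 3D sort gave TBX1 0.20, TBX2 0.35 and TBX20 -0.13, the difference between sorts gave 0.22, 0.63 and -0.28, and 3D day 25 over day 0 gave TBX5 0.31. With TNNT2- libraries alone, 3D day 25 over day 0 was -0.37 for TBX1 and -0.14 for TBX2. Leaving out each library in turn gave ranges in the 2D sort of -0.10 to 0.21 for TBX1, -0.72 to 0.063 for TBX2 and -0.048 to 0.19 for TBX5, and in the 3D sort of -1.45 to 0.35 for TBX5. For the difference between sorts the ranges were -1.36 to 0.084 for TBX1, -1.59 to 0.19 for TBX2, -1.73 to 0.44 for TBX5 and -0.12 to 1.25 for TBX20. In 2D day 25 over day 0 the number of the 4 targets that passed ranged from 0 to 4 and that of the 28 guides from 0 to 18, both highest without day 0 replicate 1, where 74.6% of all guides passed. In 3D the number of guides ranged from 0 to 1, the 1 being TBX1_2 without day 0 replicate 1, where 11.2% of all guides passed. With the replicate number as a block, each target's value was the same, since the pairs are balanced, and no call changed. TBX20 had 0.20 ± 0.20 in the 2D sort. The errors did change in the 3D sort. There the SE fell from 1.24 to 0.70 for TBX2, from 1.12 to 0.64 for TBX5 and from 0.73 to 0.57 for TBX1. For TBX20 it rose from 0.62 to 0.66. The 3D intervals given above come from the fit without the block. Guides under 10 reads were most frequent in 3 of the 3D libraries and in day 0 replicate 2. By total reads, 3D TNNT2- replicate 3 was the largest library, with 31671019 reads and 27.6% of guides under 10 reads. The smallest was 2D TNNT2- replicate 3, with 22355936 reads and 0.502% of guides under 10 reads.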
